A study of Homo sapiens with 4 samples.

Results

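The genes described here are 36 long noncoding RNAs, 18 of them hosts of small nucleolar RNAs (snoRNAs), in RNA recovered with tagged miR-26a from human DU-145 prostate carcinoma cells. They were chosen by name from a list and not by a rule on their values, though earlier results of these data were known. All 36 were found among the 25685 genes of the tables. The other 18 members comprised 6 listed as hosts of microRNAs and 12 further long noncoding RNAs. PVT1 and MEG3 are counted among the 12, although microRNA precursors also lie inside them. The study asked which RNAs miR-26a binds, by pulling out RNA crosslinked to a biotin-tagged copy of it.

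The biotin group held 2 libraries from cells transfected with 60 nM of a mixture of miR-26a duplexes with biotin at the 3′ end, in which nucleotide 7 or nucleotide 17 was the photoreactive base thiouridine. The control group held 2 libraries from cells transfected with 60 nM of a miR-26a duplex for which the labels name neither biotin nor thiouridine. All cells therefore received miR-26a, 24 h after seeding, were irradiated at 365 nm with 2 J/cm2 the day after transfection, and gave total RNA that was incubated with streptavidin beads for 4 h. RNA left on the beads was sequenced in both groups, so the control libraries hold RNA recovered without the tag, and no library of unselected RNA was analysed here. Biotin and thiouridine were present together or absent together and their effects cannot be told apart. The series design calls the libraries of a group biological replicates.

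The introns of snoRNA host genes carry snoRNAs, which are released after splicing and guide the chemical modification of ribosomal and spliceosomal RNA. The spliced exons of many of these hosts code for no known protein, are transcribed from promoters that begin in a run of pyrimidines like those of ribosomal protein genes, and are often degraded when ribosomes read their short open reading frames. Long noncoding RNAs that host no snoRNA include nuclear scaffolds, such as MALAT1 and NEAT1, and cytoplasmic RNAs that bind proteins or microRNAs, such as NORAD.

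The RNA that carried the tag is printed here because its seed decides which letters were looked for in the members. The sequence is that of RefSeq (GRCh38.p14), 5′ to 3′, with the seed (bases 2 to 8) in capitals. It is encoded at chr3:37969413-37969434 on the plus strand and at chr12:57824658-57824679 on the minus strand.
hsa-miR-26a-5p: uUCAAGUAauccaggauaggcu

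The DNA letters that pair with this seed are TACTTGA. They were looked for on the sense strand of 1 GENCODE 29 transcript (GRCh38) for each of the 28 members whose values could be tested, and were present in 6 of them. The sites in the 30-base windows below lie between the ends of a deposited transcript, whose exons were not checked for them. The windows show sites of SNHG5, MALAT1, TUG1 and NORAD, with TACTTGA in capitals. Of these, NORAD was called higher in biotin libraries and the others were not called (tests below). The site of SNHG6, which was called lower, also lies between the ends of its deposited transcript, and its letters are not printed here.
NORAD, chr20:36049208-36049214, minus strand: aaattaactcctTACTTGAaacatctagtc
TUG1, chr22:30970663-30970669, plus strand: gttgtcatccatTACTTGAtcctactttac
TUG1, chr22:30975726-30975732, plus strand: atgctctactggTACTTGAagtacatgact
TUG1, chr22:30978869-30978875, plus strand: ttgggtttctgtTACTTGAaattgaatcca
MALAT1, chr11:65500118-65500124, plus strand: aatttagaagaaTACTTGAagctagaaggg
MALAT1, chr11:65501512-65501518, plus strand: cttgttatttttTACTTGAagcattttggg
SNHG5, chr6:85677167-85677173, minus strand: tgccacgaggttTACTTGActgttgtgtga

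SNHG6 held 1 site. OIP5-AS1 held 1 that lies outside its deposited transcript, because the GENCODE transcript read is 8829 nt long and the deposited one 1894 nt. GENCODE and deposited lengths also differ for other members, such as MIR31HG (745 and 2148 nt), EPB41L4A-AS1 (2969 and 1194 nt) and MIR17HG (2845 and 5018 nt), so the shares below describe the GENCODE transcripts. KCNQ1OT1, which was too low to test, held 5 in its 91667 nt. A site was present in 1 of the 4 members called higher in biotin libraries, in 1 of the 4 called lower and in 4 of the 20 that were not called (20.0%). Among other tested genes, a site was present in 44 of 433 with a noncoding main transcript (10.2%) and in 1637 of 9112 with a coding one (18.0%), against 21.4% of the tested members, OIP5-AS1 included. Longer transcripts have more room for a site, and median lengths were 1870, 2900 and 978 nt in that order. Per kb, there were 0.0524, 0.062 and 0.151 sites. Among hosts, 2 of 17 held a site (11.8%), against 4 of 11 members that are not hosts, OIP5-AS1 included (36.4%), whose transcripts were longer (median 2840 nt, against 904 nt in hosts). With the shorter match ACTTGA (seed bases 2 to 7), 12 of the 28 members held a site (42.9%), against 36.5% of the other noncoding and 50.6% of the coding transcripts. A match is a description of the letters and does not show binding.

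Expression is given in FPKM, fragments per kilobase of a transcript relative to all mapped fragments, summed here over the transcripts of a gene. The depth estimated from coverage was 17560000 and 23640000 reads in biotin libraries and 16030000 and 17830000 reads in control libraries, so 3 reads on a transcript of 1 kb correspond to 0.171 and 0.127 FPKM in biotin libraries and 0.187 and 0.168 FPKM in control libraries. Short structured RNAs held a smaller part of the deposited signal (FPKM multiplied by length) in biotin libraries (15.8% and 19.8%) than in control libraries (41.2% and 31.9%). FPKM of every other gene is relative to that total, and the part of this difference in the results below was not tested. All 9 epithelial markers listed for DU-145 reached 1 FPKM in 2 libraries (summed level 229.9 and 247.4 FPKM in biotin libraries, 246.6 and 291.1 FPKM in control libraries). Of 4 blood markers 2 reached it and of 5 stromal markers 0, and PTPRC and HBB were listed at 0. Blood markers summed to 3.138 and 1.932 FPKM in biotin libraries and to 2.347 and 1.876 FPKM in control libraries.

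Of the 36 members, 28 had at least 1 FPKM in at least 2 libraries and entered the comparison of biotin with control libraries, 17 of the 18 hosts and 11 of the other 18. SNHG10 passed this filter only through the biotin libraries. The 8 that did not enter were the snoRNA host SNHG4, the microRNA hosts MIR22HG, DLEU2 and H19, and UCA1, KCNQ1OT1, MEG3 and HOTAIR. SNHG4, MIR22HG, UCA1, DLEU2, H19 and all 15 transcripts of MEG3 were listed at 0 in every library. HOTAIR, transcribed from the HOXC cluster, stood at 0.08789 and 0.1285 FPKM in biotin libraries and at 0.1139 and 0.1704 FPKM in control libraries, which corresponds to 4 to 7 estimated reads a library. KCNQ1OT1, the imprinted antisense RNA of the KCNQ1 locus, had 0.0004074 and 0.0001508 FPKM in biotin libraries and was listed at 0 in control libraries. A difference in HOTAIR and KCNQ1OT1 was not detectable at this depth. An exact 0 can be a failed estimate in such tables, where transcripts of the ribosomal protein gene RPSA were also listed at 0 in 3 of the 4 libraries, and MIR22HG and H19 are listed a second time on another contig. The 6 genes listed at 0 are therefore not read as absent.

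The tested members covered a wide range of levels. MALAT1 was the highest, with a mean of 219.4 FPKM over the 4 libraries, and MIR17HG the lowest, with 1.302 FPKM. By this mean over both groups, places 2 to 12 were taken by snoRNA hosts. They ran from SNHG9 (140.4 FPKM) and SNHG6 (113.1 FPKM) through SNHG8 (33.04 FPKM) and SNHG7 (32.72 FPKM) to DANCR (20.13 FPKM). The order within the hosts differed between groups. SNHG5 averaged 78.01 FPKM in biotin libraries, above SNHG6 (74.47 FPKM) and ZFAS1 (69.61 FPKM), while in control libraries SNHG5 (110.1 FPKM) stood below SNHG6 (151.7 FPKM) and ZFAS1 (122.6 FPKM). SNHG16 averaged 65.95 FPKM in biotin libraries, above GAS5 (60.72 FPKM) and SNHG15 (54.33 FPKM), and 39.2 FPKM in control libraries, below both. SNHG8 stood above SNHG7 in biotin libraries, with means of 44.34 and 31.41 FPKM, and below it in control libraries, with means of 21.75 and 34.04 FPKM. The highest member that hosts no snoRNA after MALAT1 was TUG1 (14.91 FPKM), and PVT1 (11.46 FPKM) and NEAT1 (10.92 FPKM) followed it within the spread of the single libraries.

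**Figure D1:**
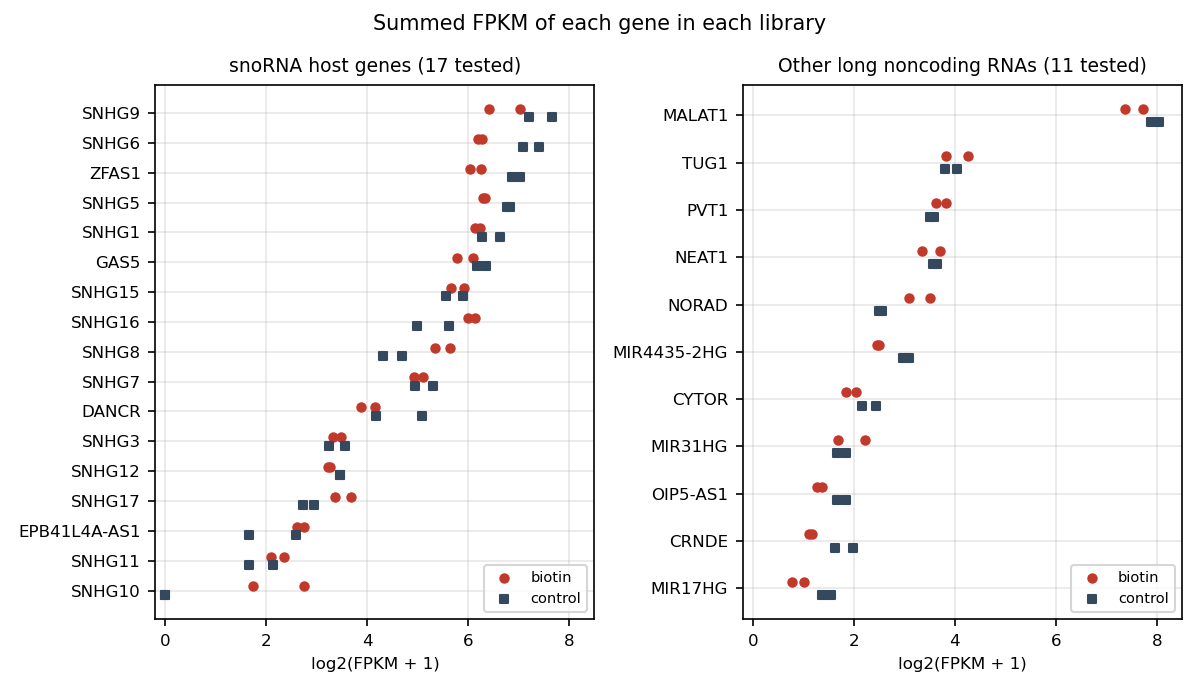
Level on the log2(FPKM + 1) scale (x axis) of the 28 tested members, 1 circle per biotin library and 1 square per control library, with snoRNA hosts and other members in separate panels. SNHG10 is listed at 0 in both control libraries, and SNHG6 and ZFAS1 show both biotin points below both control points.

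The fit across all 9940 tested genes (limma on log2(FPKM + 1), two-sided, Benjamini-Hochberg adjusted p under 0.05) called 4 members higher in biotin libraries, SNHG10, SNHG8, SNHG17 and NORAD, where 13.1% of all tested genes were called higher. It called 4 lower, SNHG6, ZFAS1, MIR4435-2HG and CRNDE, where 9.32% of all tested genes were called lower. The other 20 did not pass. The share of members called was 14.3% in each direction, close to both background shares for a list of this size. At an unadjusted p under 0.05, limma gave 5 members higher, where 19.5% of all tested genes were, and 8 lower, where 19.8% were. The median log2 fold change was -0.16 over the members and -0.06 over all tested genes. With 2 libraries against 2, an exact permutation test of a single gene cannot give a p below 0.333, so every call rests on the spread that limma shares across genes. SNHG10 lost its call without either control library, and the other 7 called members lost theirs whichever of the 4 libraries was left out. Without the filter on low values 0 members passed (limma, lowest adjusted p = 0.0528; 5 higher and 7 lower at an unadjusted p under 0.05).

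In 7 of the 28 members both biotin libraries lay above both control libraries (25.0%), where 29.4% of all tested genes did. In 14 of the 28 both biotin libraries lay below both control libraries (50.0%), where 37.7% of all tested genes did. The median fold change of hosts was -0.10 on the log2 scale, with 8 above 0 and 9 below, or -0.16 without SNHG10. The median of the members that are not hosts was -0.35, with 4 above 0 and 7 below. Among 17 tested hosts 3 were called higher and 2 lower, and among the 11 others 1 was called higher and 2 lower. The order of the medians turned round among genes with a mean of at least 5 FPKM (-0.24 for hosts and 0.02 for the others), with quantile normalization (-0.24 and -0.17) and without a filter (-0.10 and -0.07). The difference between hosts and other members was not tested.

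Among the snoRNA hosts called higher in biotin libraries was SNHG10 (chr14:95532912-95534872, hg38), which carries the Cajal body RNA SCARNA13. SNHG10 had 5.66 and 2.337 FPKM in biotin libraries and was listed at 0 in both control libraries (adjusted p = 0.00666, limma). In FPKM + 1, it was the only member whose lower biotin value was at least 2 times its higher control value, a rule that 5.08% of tested genes met in this direction, and 0 members met it downward, where 1.21% of tested genes did. No fold change is given because the controls are listed at 0. Since it entered the fit only through the group in which it is high, its call is not support of the same kind as those below. Its 1961-nt transcript held 2.354 and 2.337 FPKM in biotin libraries, about 82 and 109 estimated reads, and its 1330-nt transcript held 3.306 FPKM in biotin library 1 and was listed at 0 in the other 3 libraries. The 1961-nt transcript is as long as its span on the chromosome, so it includes SCARNA13. How reads were divided between SCARNA13 and this transcript is not given, so its 0 in control libraries may depend on that division.

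SNHG8 (chr4:118278762-118279823), host of SNORA24, had 48.92 and 39.76 FPKM in biotin libraries, against 18.72 and 24.78 FPKM in control libraries. The groups did not overlap, and the log2 fold change was 1.00 ± 0.22 (SE, adjusted p = 0.0258, limma). SNHG17 (chr20:38420592-38435375), host of the SNORA71 family, had 11.76 and 9.262 FPKM in biotin libraries and 6.719 and 5.633 FPKM in control libraries. Its biotin libraries also stood above both controls, and its log2 fold change was 0.68 ± 0.18 (SE, adjusted p = 0.0457, limma). SNHG16, host of the SNORD1 family, came next with 69.05 and 62.85 FPKM in biotin libraries and 30.59 and 47.8 FPKM in control libraries. Its groups did not overlap, but the difference of 0.77 ± 0.25 on the log2 scale did not pass (SE, adjusted p = 0.0754, limma). EPB41L4A-AS1, host of SNORA13, had 5.741 and 5.088 FPKM in biotin libraries and 2.139 and 4.964 FPKM in control libraries, a narrow gap between groups that did not pass (adjusted p = 0.211, limma).

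The hosts lower in biotin libraries were SNHG6 and ZFAS1. SNHG6, host of SNORD87 on chromosome 8, had 76.55 and 72.39 FPKM in biotin libraries and 168.6 and 134.9 FPKM in control libraries. All biotin values lay below all control values, with a log2 fold change of -1.01 ± 0.21 (SE, adjusted p = 0.0213, limma), lower than in all but 2.55% of tested genes. ZFAS1 (chr20:49278178-49289258), host of the SNORD12 cluster, had 75.09 and 64.13 FPKM in biotin libraries and 115.7 and 129.5 FPKM in control libraries, again without overlap. Its log2 fold change was -0.81 ± 0.20 (SE, adjusted p = 0.0348, limma). ZFAS1 transcripts that begin at chr20:49278178 overlap the zinc finger gene ZNFX1, which reaches to chr20:49278219. The 502-nt transcript, with most of the FPKM of ZFAS1 in every library, begins at chr20:49278642, outside ZNFX1. ZNFX1 stood at 4.417 and 4.834 FPKM in biotin libraries and at 8.191 and 5.894 FPKM in control libraries. How reads were assigned between the overlapping transcripts is not given in the sources used here.

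In all, 12 tested hosts did not pass, SNHG16 and EPB41L4A-AS1 among them. SNHG5, host of SNORD50A and SNORD50B, had 76.98 and 79.03 FPKM in biotin libraries, below both control libraries at 107.3 and 112.9 FPKM. Replicates lay close together in both groups, yet the log2 difference of -0.49 ± 0.18 did not pass (SE, adjusted p = 0.102, limma). SNHG9, host of SNORA78 and at 233 nt the shortest main transcript among the members, had 129.3 and 83.82 FPKM in biotin libraries and 147.3 and 201.1 FPKM in control libraries, with a difference of -0.72 ± 0.29 (SE, adjusted p = 0.116, limma). Its biotin libraries differed from each other by more than the gap between the groups.

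SNHG1, which hosts a row of box C/D snoRNAs, had 68.9 and 73.71 FPKM in biotin libraries and 76.48 and 97.95 FPKM in control libraries. GAS5, a growth arrest RNA that hosts another such row, had 67.58 and 53.86 FPKM in biotin libraries and 71.15 and 80.42 FPKM in control libraries. In both genes the biotin libraries lay below the controls, with adjusted p of 0.368 and 0.297 (limma), and their 95% intervals of the log2 fold change ran from -0.79 to 0.23 for SNHG1 and from -0.83 to 0.18 for GAS5. DANCR, known for opposing differentiation, had 16.75 and 13.67 FPKM in biotin libraries and 17.11 and 33.0 FPKM in control libraries, and control library 2 stood far above the other 3 libraries (adjusted p = 0.196, limma). SNHG12, host of SNORA44 and SNORA61, had 8.638 and 8.322 FPKM in biotin libraries and 9.929 and 9.94 FPKM in control libraries. That gap was small and free of overlap, at -0.21 ± 0.15 on the log2 scale (SE, adjusted p = 0.355, limma).

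In the other 4 tested hosts the groups overlapped. SNHG3, host of SNORA73A, had 9.033 and 10.12 FPKM in biotin libraries and 10.74 and 8.407 FPKM in control libraries, with a 95% interval of the log2 fold change from -0.43 to 0.45. SNHG15, host of SNORA9, had 59.09 and 49.56 FPKM in biotin libraries and 46.39 and 58.68 FPKM in control libraries (-0.47 to 0.57). These intervals leave room for changes of moderate size in either direction. SNHG7, host of SNORA17A and SNORA17B, had 29.37 and 33.44 FPKM in biotin libraries and 29.65 and 38.42 FPKM in control libraries (-0.61 to 0.40). SNHG11, host of SNORA60, had 4.124 and 3.254 FPKM in biotin libraries and 3.391 and 2.154 FPKM in control libraries (-0.17 to 0.83).

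**Figure D2:**
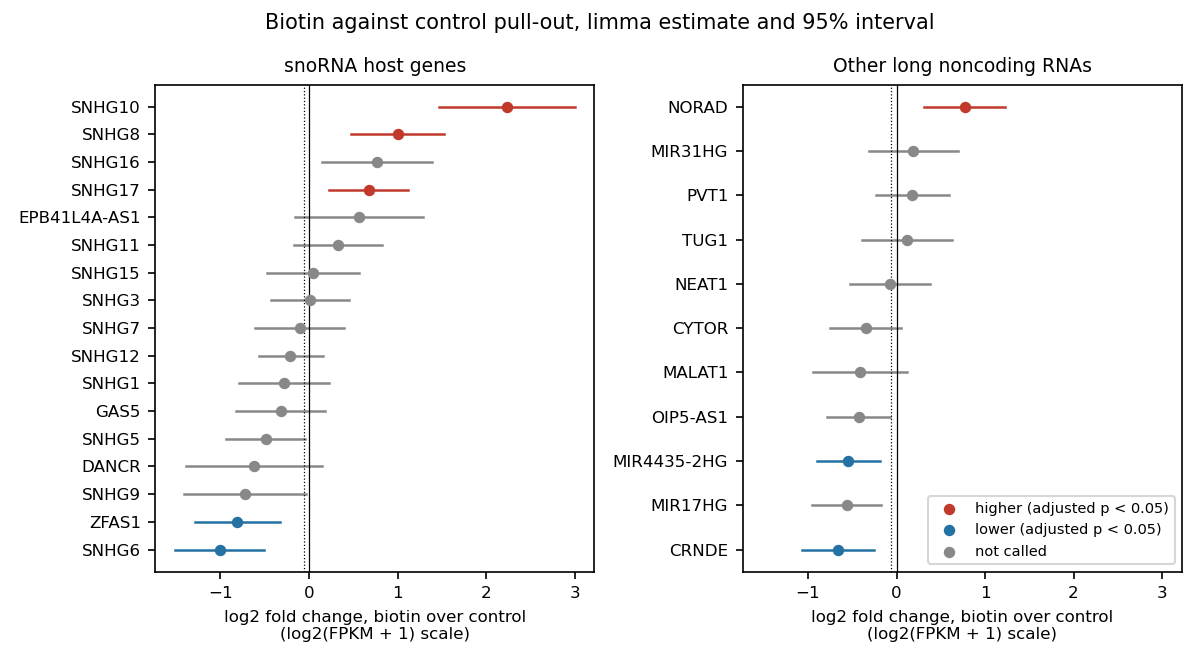
Log2 fold change of biotin over control libraries (x axis, log2(FPKM + 1) scale) of the 28 tested members, with 95% intervals from limma, snoRNA hosts and other members in separate panels and the dotted line at the median of all tested genes, -0.06. SNHG10 lies at the high end of the hosts, where its position depends on the pseudocount because its controls are listed at 0, and SNHG6 lies at the low end.

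Among the 3 tested microRNA hosts, MIR4435-2HG was called lower (chr2:111367011-111495115). It had 4.516 and 4.637 FPKM in biotin libraries and 6.818 and 7.517 FPKM in control libraries. The replicates differed little within a group, and the log2 fold change was -0.55 ± 0.15 (SE, adjusted p = 0.0435, limma). Its level rests on few reads. Its 543-nt transcript had about 28 and 42 estimated reads in biotin libraries and 47 and 54 in control libraries. MIR17HG, precursor of the miR-17-92 cluster, had 0.7136 and 1.006 FPKM in biotin libraries, below both control libraries at 1.904 and 1.584 FPKM, and lay just outside the threshold at -0.56 ± 0.16 (SE, adjusted p = 0.0506, limma). It was called lower with upper-quartile scaling (adjusted p = 0.0475), with quantile normalization (adjusted p = 0.0432) and with a pseudocount of 5 (adjusted p = 0.0467). MIR31HG, host of miR-31, had 3.628 and 2.205 FPKM in biotin libraries and 2.592 and 2.178 FPKM in control libraries, which overlapped (adjusted p = 0.533, limma).

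Among the tested members of the 12 further long noncoding RNAs, NORAD was called higher and CRNDE lower. NORAD (chr20:36045618-36050960), an abundant cytoplasmic RNA that binds Pumilio proteins, had 7.484 and 10.41 FPKM in biotin libraries and 4.651 and 4.892 FPKM in control libraries. Both biotin libraries stood clear of the controls, with a log2 fold change of 0.77 ± 0.19 (SE, adjusted p = 0.0346, limma). CRNDE (chr16:54918863-54929189), named for its expression in colorectal neoplasia, had 1.256 and 1.153 FPKM in biotin libraries and 2.93 and 2.096 FPKM in control libraries. Its groups did not overlap either, at -0.66 ± 0.17 (SE, adjusted p = 0.0372, limma), and its level rests on few reads (20 and 15 estimated reads in the biotin libraries and 30 and 30 in the control libraries on its 924-nt transcript).

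The other 6 did not pass. MALAT1, the abundant RNA of nuclear speckles, had 212.3 and 165.2 FPKM in biotin libraries and 264.6 and 235.5 FPKM in control libraries, with both biotin libraries below both controls (-0.41 ± 0.22, SE, adjusted p = 0.211, limma). NEAT1, the scaffold of paraspeckles, is represented in the tables by a 3735-nt transcript only and had 9.201 and 12.13 FPKM in biotin libraries and 10.81 and 11.53 FPKM in control libraries. The NEAT1 groups overlapped (-0.07 ± 0.19, SE). TUG1, with the 3 seed matches printed above, had 13.2 and 18.03 FPKM in biotin libraries and 12.98 and 15.44 FPKM in control libraries. Its groups overlapped too, with a 95% interval of the log2 fold change from -0.39 to 0.63.

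OIP5-AS1, a cytoplasmic RNA known to bind miR-7, had 1.585 and 1.418 FPKM in biotin libraries and 2.565 and 2.16 FPKM in control libraries (-0.42 ± 0.15, SE, adjusted p = 0.0817, limma). CYTOR had 3.132 and 2.585 FPKM in biotin libraries and 4.392 and 3.451 FPKM in control libraries (-0.35 ± 0.17, SE, adjusted p = 0.173, limma). In both of these the biotin libraries lay below both controls. PVT1, the neighbour of MYC, had 11.31 and 13.2 FPKM in biotin libraries and 11.04 and 10.31 FPKM in control libraries, a narrow separation upward (0.18 ± 0.17, SE, adjusted p = 0.465, limma).

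The deposited tables list 84 transcripts for the 36 members, and 38 of them were at 0 in every library. In a fit across 12006 transcripts, 2 of the 35 tested member transcripts were called higher in biotin libraries, where 2.8% of all transcripts were, and 0 were called lower, where 1.18% were (limma; 6 higher and 4 lower at an unadjusted p under 0.05). The 468-nt transcript of SNHG8 had 8.741 and 7.395 FPKM in biotin libraries and was listed at 0 in both control libraries (adjusted p = 0.023, limma). Like the called SNHG10 transcript, it passed the filter only through the biotin libraries, so both calls were open to a difference in that direction alone. It made up 17.9% and 18.6% of SNHG8 FPKM in biotin libraries. The 274-nt transcript held most of the gene's FPKM in every library, with 33.75 and 28.73 FPKM in biotin libraries and 14.3 and 15.19 FPKM in control libraries, and it did not pass (adjusted p = 0.0644, limma). The third SNHG8 transcript, of 619 nt, overlapped between groups, with 6.431 and 3.632 FPKM in biotin libraries and 4.418 and 9.596 FPKM in control libraries. The other called transcript was the 1961-nt transcript of SNHG10 described above (adjusted p = 0.0459, limma).

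MIR17HG differed between groups in which transcript was listed. Its 927-nt transcript was at 0 in both biotin libraries and held 1.268 and 0.7902 FPKM in control libraries, about 19 and 13 estimated reads. Its 5018-nt transcript overlapped, with 0.7136 and 1.006 FPKM in biotin libraries and 0.6362 and 0.7938 FPKM in control libraries. An 806-nt transcript of CYTOR showed the reverse and made up 15.7% and 12.3% of the gene's FPKM in biotin libraries, while it was listed at 0 in control libraries. These shares rest on 0.4913 and 0.3185 FPKM, about 7 and 6 estimated reads, too few to establish a difference between the groups. In SNHG3, SNHG16 and ZFAS1 the listed transcripts varied among libraries of the same group. The 2238-nt transcript of SNHG3 made up 0% and 34.9% of its FPKM in biotin libraries and 44.6% and 0% in control libraries, so the values of single transcripts of SNHG3 do not repeat within either group although their sum does.

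**Figure D3:**
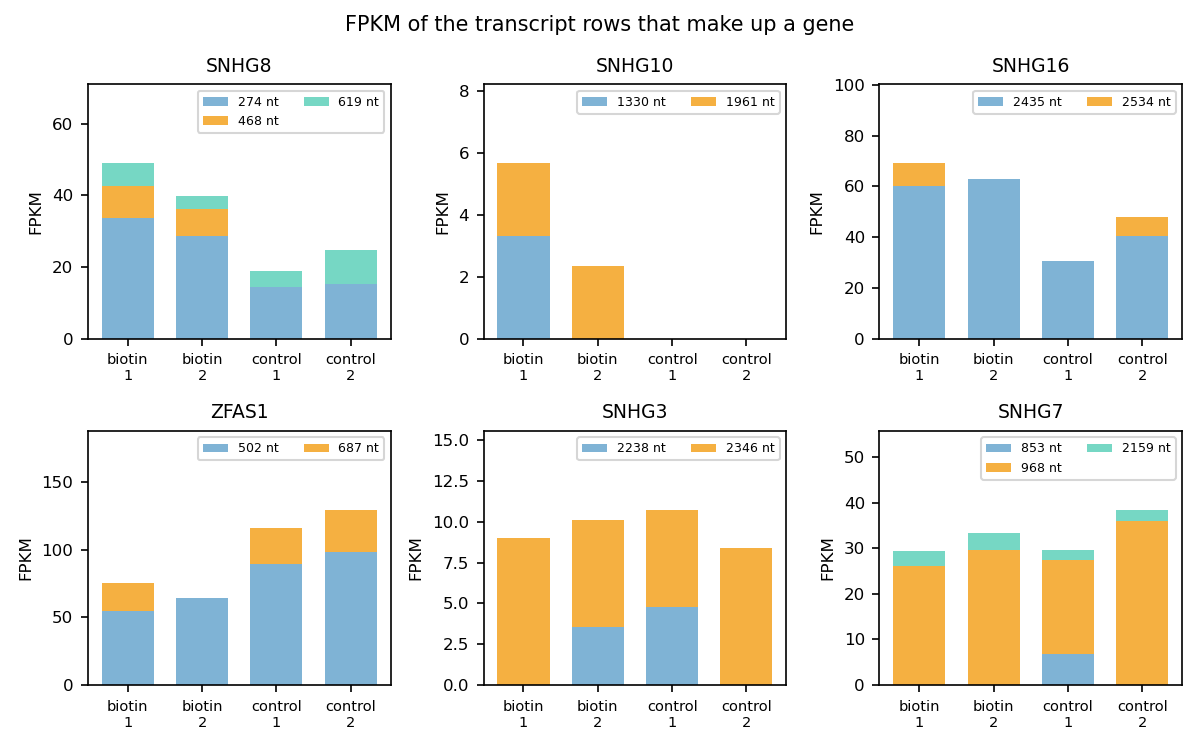
FPKM (y axis, from 0) of the transcripts of 6 snoRNA hosts in each biotin and control library, stacked, with colours for transcript lengths. The 468-nt transcript of SNHG8 adds 8.741 and 7.395 FPKM in biotin libraries and 0 in both controls, and SNHG10 is empty in the controls.

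FPKM divides by length, and the fold changes of the members differed with the length of the main transcript. Of the 10 hosts under 1000 nt, 2 had a log2 fold change above 0 and 8 below, with a median of -0.41. Of the 7 hosts of at least 1000 nt, 6 lay above 0 and 1 below, with a median of 0.57. The members that are not hosts had a median of -0.55 over the 3 under 1000 nt and of 0.02 over the 8 longer ones. All 4 members called lower were under 1000 nt, and SNHG8 was the only member called higher in that class.

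The same direction was present among all tested genes, at a median of -0.49 over the 833 under 1000 nt (60 higher and 264 lower) and of -0.04 over the 9107 longer ones (1247 higher and 662 lower). Among genes with a noncoding main transcript the medians were -0.07 for the 129 under 1000 nt and 0.05 for the 426 longer ones. Short hosts therefore stood near the median of all short genes and below that of short noncoding ones. The 7 longer hosts, SNHG10 among them, had a median of 0.57, above both medians of the longer genes. What the length difference adds to single calls was not tested.

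**Figure D4:**
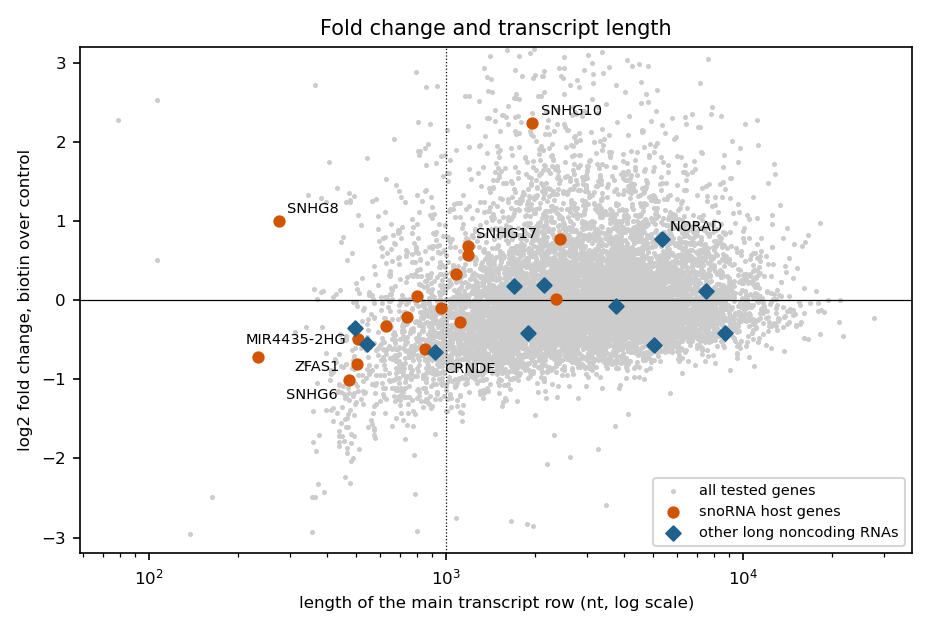
Log2 fold change of biotin over control libraries (y axis, log2(FPKM + 1) scale) against the length of the main transcript in nt (log axis) for all tested genes, with snoRNA hosts and other members marked and the dotted line at 1000 nt. The 4 members called lower lie left of the line, and 31 genes beyond 3.2 on the y axis are not drawn.

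The tables also list the small RNAs that lie inside the members' loci, 65 in all, of which 40 reached 1 FPKM in 2 libraries. Their values were read without a test, because FPKM of transcripts near or below the fragment length is unstable. Within 16 hosts, 39 small RNAs reached that level. Both biotin libraries lay below both controls for 19 of them (48.7%), where 34.0% of 285 short RNAs of the series did. For 4 both biotin libraries lay above both controls (10.3%), where 16.5% did, and for 16 the groups overlapped. Of the 4 above, 2 were listed at 0 in both controls and so reached 1 FPKM in 2 libraries only through the biotin libraries. By the rule of 2 times in FPKM + 1 used above, 8 of the 39 were lower in biotin libraries, where 18.9% of short RNAs were, and 3 were higher, where 12.6% were.

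The small RNA and its host gene did not always lie on the same side. SNORA73A, inside SNHG3, had 2089 and 2035 FPKM in biotin libraries and 20440 and 21920 FPKM in control libraries, while SNHG3 itself overlapped between groups. A 205-nt transcript without a gene symbol inside SNHG3 had 700.5 and 1173 FPKM in biotin libraries, also far below the controls at 7362 and 12550 FPKM. Its span holds all of SNORA73B, listed at 275.3 and 0 FPKM in biotin libraries and at 0 in both controls. SNORA73B has a status of low data in every library, and how reads were divided between these overlapping transcripts is not given. SCARNA13, inside SNHG10, had 225.4 and 408.0 FPKM in biotin libraries and 1703 and 1427 FPKM in control libraries, the opposite order to SNHG10, which was listed at 0 in those controls. The tables give SCARNA13 a status of low data in every library. The 1961-nt transcript of SNHG10 is unspliced and includes SCARNA13, and how reads were divided between them is not given. SNORA74A, inside SNHG4, had 59.33 and 135.9 FPKM in biotin libraries and 1166 and 768.4 FPKM in control libraries, with the host listed at 0 throughout.

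In SNHG17, called higher, all 4 SNORA71 members lay below both controls in both biotin libraries. SNORA71D had the widest gap, with 42.59 and 38.7 FPKM in biotin libraries and 353.6 and 497.8 FPKM in control libraries. In SNHG1 the small RNAs of a single host moved both ways, with 5 lower, 2 higher and 1 overlapping. SNORD29 had 506.0 and 533.1 FPKM in biotin libraries and 1762 and 2223 FPKM in control libraries, while SNORD25 had 306.7 and 313.1 FPKM in biotin libraries and 100.8 and 152.0 FPKM in control libraries. In GAS5 6 of 7 overlapped between groups, among them SNORD80 with 1408 and 1499 FPKM in biotin libraries and 1046 and 2155 FPKM in control libraries. The microRNA precursors inside MIR17HG, MIR22HG, MIR31HG, DLEU2, H19 and MEG3 were listed at 0 in every library, and those inside MIR17HG, MIR22HG, H19 and MEG3 carry a status of low data, so these values are not read as measured zeros. MIR1207, inside PVT1, had 40.87 and 31.29 FPKM in biotin libraries, below both controls at 147.1 and 62.91 FPKM.

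**Figure D5:**
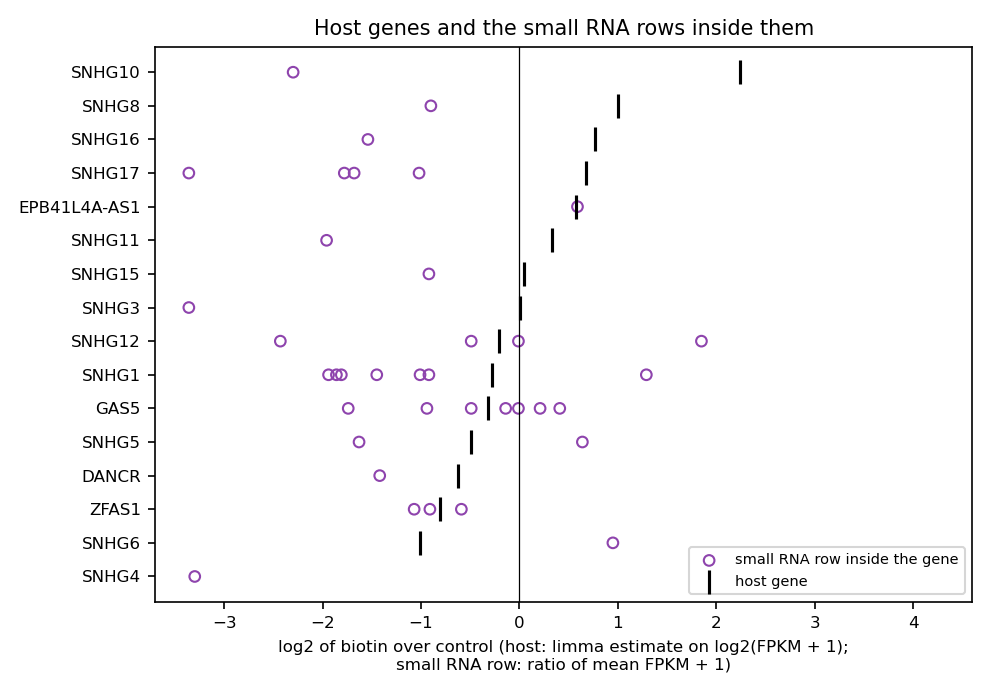
Log2 ratio of biotin over control means (x axis, FPKM + 1) of small RNAs inside each snoRNA host (open circles), with the limma estimate of the host gene as a bar, hosts ordered by that estimate. All 4 small RNAs of SNHG17 lie left of 0 and its bar right of it; small RNAs listed at 0 in both controls are left out, SNHG4 has no bar because it was listed at 0, and the bar of SNHG10 depends on the pseudocount.

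The start of a host gene was compared with the pyrimidine run by which the 5′ ends of ribosomal protein RNAs are known. The RefSeq promoter table (GRCh38.p14) matched 28 of the 36 members. A run of at least 5 C or T letters touching the 5 bases on either side of the start was present in 11 of 15 matched hosts (73.3%), in 5 of 13 other members (38.5%), in 35.6% of all 27305 genes of that table and in 50 of 56 tested ribosomal protein genes (89.3%). Of the 12 hosts whose table start lies within 20 bases of a deposited transcript, 9 held one. The starts of the called hosts with an entry in that table, of SNHG16 and of NORAD are printed for comparison. SNHG6 has no entry, ZFAS1 is the printed host called lower, and the longest runs of SNHG10 and NORAD are 4 letters. Each window runs from 10 bases before the start to 20 bases from it on the gene's own strand, 5′ to 3′, with the longest run in capitals.
SNHG8, chr4:118278752-118278781, plus strand: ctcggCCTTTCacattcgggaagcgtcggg
SNHG10, chr14:95534853-95534882, minus strand: cttatgccggagCCTCatcctactgcctta
SNHG16, chr17:76557754-76557783, plus strand: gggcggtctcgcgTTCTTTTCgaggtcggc
SNHG17, chr20:38435309-38435338, minus strand: gtgtggcctcagTCCTTCgccgtccctcgc
ZFAS1, chr20:49278632-49278661, plus strand: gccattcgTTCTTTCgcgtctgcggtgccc
NORAD, chr20:36050941-36050970, minus strand: ctgccaagtcagTTCCggtccggcagagat

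Other genes that carry snoRNAs give the setting for these values. Of 24 listed ribosomal protein hosts 22 were tested, and 14 were lower in biotin libraries (9.32% of all tested genes were) and 0 higher (limma; 15 lower and 0 higher at an unadjusted p under 0.05), with a median log2 fold change of -0.95. When each library was left out in turn, 9 of the 14 lost their call every time and 5 kept it in some cases. RPL12 had 84.25 and 60.41 FPKM in biotin libraries and 192.4 and 244.2 FPKM in control libraries (-1.59 ± 0.25, SE, adjusted p = 0.00959, limma). Of 36 listed protein-coding hosts outside the ribosome 33 were tested, with a median of -0.28. Of these, 4 were higher (12.1%, where 13.1% of all tested genes were) and 5 lower (15.2%, where 9.32% were). Only 2 of these 9 calls held without some single library. The 9 called genes included PHB2, a prohibitin of the mitochondrial inner membrane, with 369.0 and 269.8 FPKM in biotin libraries and 102.8 and 117.5 FPKM in control libraries (1.51 ± 0.23, SE, adjusted p = 0.00903, limma). HSPA8, a heat shock cognate chaperone, moved the other way, with 55.36 and 60.74 FPKM in biotin libraries and 107.2 and 118.5 FPKM in control libraries (-0.95 ± 0.19, SE, adjusted p = 0.0202, limma).

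Of 15 further noncoding hosts 3 were tested and 0 called (limma; 1 higher and 0 lower at an unadjusted p under 0.05). SNHG29 was the most abundant of them, with 195.9 and 190.5 FPKM in biotin libraries and 149.0 and 187.0 FPKM in control libraries. Of 52 other listed long noncoding RNAs 13 were tested, with 0 higher and 2 lower (limma; 0 and 3 at an unadjusted p under 0.05) and a median of -0.06. The lower ones were TP53TG1, with 2.219 and 2.492 FPKM in biotin libraries and 5.913 and 7.029 FPKM in control libraries, and LINC00467, with 1.457 and 0.7586 FPKM in biotin libraries and 3.257 and 2.336 FPKM in control libraries. Their main transcripts are 709 and 758 nt long, within the length class that held the members called lower. Over all 555 tested genes with a noncoding main transcript, 13.0% were called higher and 8.47% lower.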

How the data were processed

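RNA recovered on streptavidin beads was measured by RNA-seq in 4 libraries, made with a stranded total RNA kit and single reads of 50 bases, per the labels' protocols. Cufflinks 2.1.1 and TopHat2 2.0.9, together with Cuffdiff, cutadapt and FastQC 0.10.1, are named with build hg38 in the submitters' processing notes. Their settings and strand handling are not given in the sources used, so reads of overlapping or antisense genes may have gone to either gene. The authors deposited 1 table per library with 53209 transcripts, whose values are FPKM per the file headers. Coverage, a signal per the file headers, served only to estimate depth, and the deposited transcript length to describe short transcripts.

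RefSeq tables named 98.7% of 46699 accessions, and FPKM was summed per gene. Genes with at least 1 FPKM in at least 2 libraries were tested, without short structured RNA genes and without 22 genes that have a failed estimate. The model was limma 3.58.1 (R 4.3.3; lmFit, then eBayes with trend) on log2(FPKM + 1), which understates changes of low genes. It had 2 residual degrees of freedom, to which the prior added 4.2. The steps were tested on simulated data. Raw counts were not used, so counting intervals are not given. Libraries correlated across genes at r = 0.97 (biotin), 0.971 (control) and 0.876 to 0.883 between groups. Alternatives changed the pseudocount, the filter, the scaling or the variance trend, kept short RNA genes, used single transcripts, left out each library, or added the replicate number as a block. Members, gene lists and tests were chosen with earlier results of these data known. Every member could be named, and from each other list up to 4 called genes with the largest change, of which some are described. SNHG29 is named in addition, chosen after its values were seen.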

Additional observations from a re-analysis of the deposited data

Results flagged for a closer look

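Small RNAs inside the loci stood outside the tests. For 3 of the 39 small RNAs in hosts both biotin libraries were at least 2 times above both controls in FPKM + 1. By this rule 12.6% of the 285 short RNAs of the series were higher. SNORD30, inside SNHG1, had 256.8 and 241.0 FPKM in biotin libraries (mean 248.9 FPKM) and was listed at 0 in both control libraries. SNORD25, inside the same host, had a mean of 309.9 FPKM in biotin libraries, against 100.8 and 152.0 FPKM in control libraries. SNORD1B, inside SNHG16, had 38.53 and 30.23 FPKM in biotin libraries (mean 34.38 FPKM) and was listed at 0 in both control libraries. SNORD30 and SNORD1B reached 1 FPKM in 2 libraries only through the biotin libraries, so they could be counted in that direction alone. Other snoRNAs of SNHG1 lay on the opposite side, and a value listed at 0 for so short an RNA may be a failed estimate.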

How the results depend on the processing

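No alternative reversed a called member. Of all genes, 1307 were higher and 926 lower in biotin libraries (58.5% higher), and 653 and 230 without a filter, 336 and 142 as single transcripts, 1224 and 1383 with upper-quartile scaling (47% higher) and 1483 and 757 with median-of-ratios scaling (66.2% higher). Leaving out 1 library gave 189 to 680 higher and 32 to 223 lower. Of the members, 4 were higher and 4 lower. Without a filter 0 and 0 were called, with a lowest adjusted p of 0.0528 and 5 higher and 7 lower at an unadjusted p under 0.05 (limma). With short RNA genes kept, 2 were higher (0 outside the hosts) and 1 lower (a host). As single transcripts 2 were higher, both of hosts, and 0 lower. With median-of-ratios scaling 5 were higher and 2 lower (0 outside the hosts), and with a mean of at least 5 FPKM 1 member that is no host was lower. Leaving out 1 library left 0 to 1 members higher, a host where there was 1, and 0 lower (limma; 3 to 5 higher and 5 to 6 lower at an unadjusted p under 0.05). SNHG10 kept its call without either biotin library and lost it without either control (adjusted p 0.0052 to 0.0815), and the other 7 lost theirs in each case. SNHG17, called with the highest p, was also lost with upper-quartile scaling (adjusted p = 0.0583). SNHG5 was gained with that scaling (adjusted p = 0.0491) and SNHG16 with median-of-ratios scaling (adjusted p = 0.049). The causes were not tested.

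Deviations of equally numbered libraries correlated at 0.00246, so no shared deviation was seen in the values. This correlation cannot show whether equally numbered libraries were prepared together. With the number as a replicate block, 1078 genes were higher and 534 lower, and of the members 2 were higher (1 host) and 1 was lower (a host, with 0 lower outside the hosts; limma, 5 higher and 6 lower members at an unadjusted p under 0.05). Depth limits members below 1 FPKM, and 2 libraries a group limit every call.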
